A study of Mus with 6 samples.

Results

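Enzymes and transporters of glycolysis, of lactate and pyruvate metabolism and of glycogen metabolism were followed in the hippocampus of mice loaded with forced swim stress (FSS). Of 38 such genes, 35 were measured, among 19938 genes that the arrays covered with at least 1 probe set (a row of the table) naming a single gene symbol. They were grouped by what they encode, and where a gene had several rows the brightest one on average was used. Total RNA from the hippocampus of 3 control mice without swimming and 3 FSS mice was hybridized to Mouse Gene 1.0 ST arrays, with 1 mouse per array. All mice were of the strain C57BL/6JJmsSlc and 10 to 11 weeks old by the labels, which name no transgene or drug. The study's methods give them as male. The FSS mice swam for 11 min a day on 5 days. The methods state that the FSS arrays shown were picked at random among those of the FSS mice, and the mice had taken a tail suspension test between the swimming and the dissection.

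Glycolysis splits glucose into pyruvate in the cytosol. Pyruvate either enters the mitochondrion through the pyruvate dehydrogenase complex or is turned into lactate, which monocarboxylate transporters carry across cell membranes. In the brain, glycogen is held mainly by astrocytes, neurons are thought to take up part of the lactate that glia release, and many steps are run by isozymes that differ between cell types.

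The transcripts of these genes differed little between FSS and control mice. Slc16a3, which encodes the lactate exporter MCT4, was the only 1 of the 35 genes to pass an unadjusted p of 0.05 in limma, and it was lower in FSS mice (log2 fold change -0.13, SE 0.050, n = 3 and 3). None was higher at that threshold and 34 did not pass it. Over all 21789 rows tested, 2.49% were higher and 2.66% were lower at the same threshold, so that 1 lower gene in 35 is close to the background. The thresholds of the study's methods, an absolute log2 fold change over 0.5 with p under 0.05, were met by 0 of the 35 genes and by 0.0688% of all rows. After Benjamini-Hochberg adjustment over all rows, limma called 0 of the 35 genes, the adjusted p lay between 0.943 and 1.00, and 0% of all rows passed.

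The intervals were narrow enough to bound the differences. The 95% interval of the log2 fold change lay within -0.5 and 0.5 for 35 of the 35 genes, with -0.30 as the lowest lower bound (Pygm) and 0.33 as the highest upper bound (Ugp2), or from -18.9% to 26.0% of the control level. The log2 fold changes themselves ran from -0.14 for Pygm, the muscle isozyme of glycogen phosphorylase, to 0.15 for Ugp2, which makes the UDP-glucose that glycogen is built from. Of the 35 genes, 22 lay above 0 and 13 below, with a median of 0.013 against 0.0049 over all rows. A difference within 0.1 of 0 on the log2 scale was found for 30 of the 35 genes (85.7%), for 79.2% of all rows and for 89.6% of the rows at or above the median level.

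**Figure D1:**
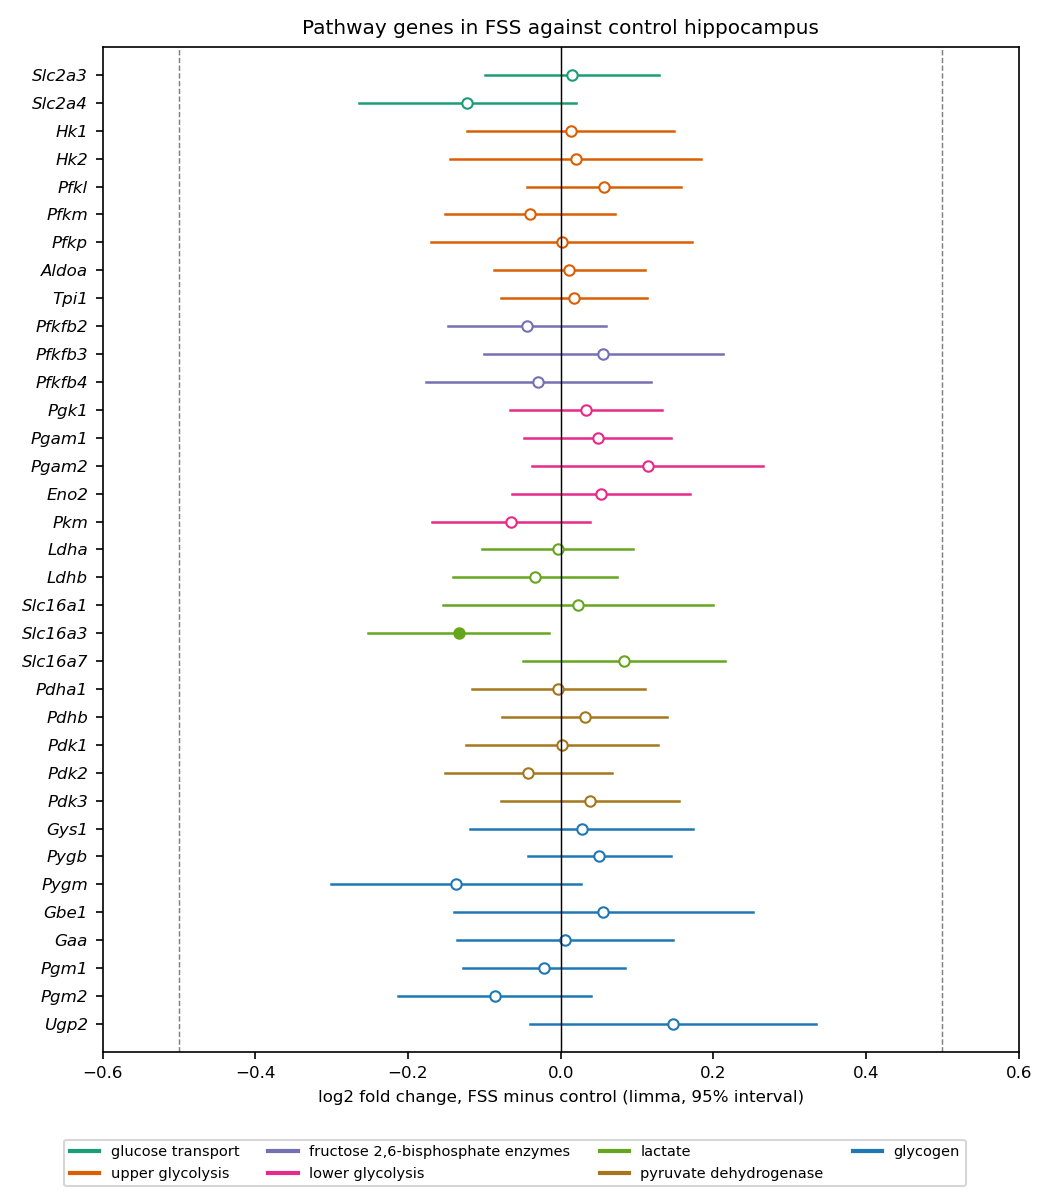
Log2 fold change (FSS minus control) of the 35 genes, ordered and coloured by role. Points are limma estimates with 95% intervals from 3 control and 3 FSS mice, the filled point is the 1 gene with an unadjusted p under 0.05 (Slc16a3), and dashed lines mark -0.5 and 0.5. No interval reaches either dashed line.

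Levels are log2 values after robust multi-array averaging (RMA), in which differences between genes also reflect their probes, so levels are compared only between mice. Medians of the 6 arrays lay between 7.32 and 7.35. Their spread did not: the SD over all rows was 2.22 to 2.23 in control mice 1 and 2 and FSS mouse 2, and 2.26 to 2.27 in control mouse 3 and FSS mice 1 and 3. This difference in spread crosses the groups. Of the markers of hippocampal neurons, 10 of 10 were measured and none lay at the bottom of the scale. Their mean level was 9.91 to 10.01 in control and 10.02 to 10.05 in FSS mice. Of these 10, 1 was higher at an unadjusted limma p under 0.05 (Prox1, a dentate granule cell marker, log2 fold change 0.15). The 10 pan-neuronal markers overlapped between the groups, at 11.57 to 11.62 in control and 11.59 to 11.65 in FSS mice. The mean levels of 2 blood and 5 skeletal muscle markers also overlapped. None of the markers in these 3 lists passed the same threshold. Markers of microglia were at 8.17 to 8.31 in control and 8.35 to 8.42 in FSS mice (3 of 7 higher at an unadjusted limma p under 0.05), those of meninges at 8.41 to 8.47 and 8.50 to 8.73 (1 of 6 higher) and those of choroid plexus at 6.96 to 7.22 and 7.24 to 7.41 (1 of 7 higher, Ttr). Without Ttr (log2 fold change 0.95) the other 6 choroid plexus markers were at 6.86 to 6.99 in control and 6.91 to 7.02 in FSS mice, with 4 above and 2 below 0. At that threshold 2.49% of all rows were higher and 2.66% lower. After adjustment 0% of all rows passed, and so none of these markers. The part of these cell types in the values of the 35 genes was not tested. The tissue is a mixture, and fewer cells of a type cannot be told apart from less RNA per cell.

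Glucose enters brain cells through glucose transporters. Slc2a3, the main neuronal transporter (GLUT3), was at 10.90, 10.97 and 10.93 in control mice 1 to 3 and at 11.01, 10.95 and 10.89 in FSS mice 1 to 3. The groups overlapped, with the highest and the lowest of the 6 values both in FSS mice, and the log2 fold change was 0.015 (SE 0.048). Slc2a4, which encodes the insulin-responsive transporter GLUT4, was at 6.43, 6.61 and 6.49 in control mice and at 6.40, 6.43 and 6.33 in FSS mice. Control mouse 2 was highest and control mouse 1 lay below FSS mouse 2, so the groups overlapped (log2 fold change -0.12, SE 0.060, limma adjusted p = 0.943). This row is dim, as its mean is below the median of 7.68 over all rows.

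Hexokinase traps glucose in the cell as its phosphate. Hk2, an inducible isozyme and another dim row, was at 6.30, 6.51 and 6.50 in control mice and at 6.39, 6.48 and 6.50 in FSS mice. Control mouse 1 was the lowest of the 6, followed by FSS mouse 1, and the groups overlapped (log2 fold change 0.020, SE 0.069). Hk1, the main brain isozyme, was at 11.95, 11.98 and 12.11 in control mice and at 12.07, 11.98 and 12.03 in FSS mice, with the extremes in control mice and a log2 fold change of 0.013 (SE 0.057).

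The Hk1 row chosen by its mean rests on 1 transcript accession in the annotation, and 16 rows that name several genes hold the same accession, 16 of them together with Rpl17, a ribosomal protein gene. Whether it measures Hk1 is therefore uncertain. The other Hk1 row, annotated with RefSeq transcripts, was at 10.59, 10.59 and 10.61 in control mice and at 10.64, 10.57 and 10.60 in FSS mice. In it the groups also overlapped, and the log2 fold change was 0.0024 (SE 0.041).

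The further enzymes of upper glycolysis are the phosphofructokinase subunits Pfkl, Pfkm and Pfkp, which carry out the committed step, aldolase A (Aldoa) and triose phosphate isomerase (Tpi1). Pfkl, the liver-type subunit, was at 10.25, 10.23 and 10.20 in control mice and at 10.25, 10.28 and 10.33 in FSS mice. Each FSS mouse lay above each control mouse, but control mouse 1 and FSS mouse 1 nearly met, and the fold change did not pass the test (log2 0.056, SE 0.042, limma adjusted p = 0.959). Such a lack of overlap with FSS higher was found for 3 of the 35 genes (Pfkl, Pgam1 and Pygb) and for 6.02% of all rows, and with FSS lower for 1 of 35 (Slc16a3) and 4.25% of all rows. The 7 genes from hexokinase to triose phosphate isomerase ranged from -0.040 (Pfkm) to 0.056 (Pfkl) in log2 fold change, 6 above 0 and 1 below.

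Fructose 2,6-bisphosphate made by the bifunctional Pfkfb enzymes activates phosphofructokinase, and Pfkfb3 favours its synthesis. Pfkfb3 was at 8.23, 8.06 and 8.18 in control mice and at 8.11, 8.25 and 8.28 in FSS mice. Each group held 1 mouse below the rest, control mouse 2 and FSS mouse 1, the groups overlapped, and the log2 fold change was 0.056 (SE 0.066). The other two, Pfkfb2 and Pfkfb4, had log2 fold changes of -0.044 and -0.029.

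Gapdh, the enzyme that oxidizes glyceraldehyde phosphate and the reference of the study's RT-qPCR, was named only in rows that also name other genes, and so has no value by the rule. In the 25 rows that name it with others, 20 of them distinct, the median level over the distinct rows was 13.90, 13.92 and 13.91 in control mice and 13.91, 13.93 and 13.94 in FSS mice. FSS minus control lay between 0.0042 and 0.027 on the log2 scale in these rows, with 25 of 25 above 0 and 1 of 25 without overlap. Of the rows with 1 symbol, 11544 of 21789 lay above 0, and 6.02% had no overlap with FSS higher. These rows all name Gapdh and some hold identical values, so they are no independent measurements. Gpi1 and Eno1 were named in no row used here and were not analysed.

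The lower steps of glycolysis recover ATP. Pgam1, the brain-type phosphoglycerate mutase, was at 11.91 in each of the 3 control mice and at 11.99, 11.93 and 11.96 in FSS mice. The control mice varied by an SD of 0.0016, FSS mouse 2 lay nearest to them, and the fold change did not pass the test (log2 0.048, SE 0.040, limma adjusted p = 0.968). Pgam1 had 3 rows, and those not chosen held identical values. They gave 11.65, 11.65 and 11.67 in control mice and 11.73, 11.66 and 11.71 in FSS mice. There control mouse 3 lay above FSS mouse 2 and the groups overlapped, so only the chosen row showed no overlap.

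Pkm, pyruvate kinase, closes the pathway, and was at 11.65, 11.69 and 11.71 in control mice and at 11.58, 11.62 and 11.66 in FSS mice. FSS mouse 3 lay above control mouse 1, so the groups overlapped (log2 fold change -0.065, SE 0.043). The second Pkm row had a log2 fold change of -0.024. Of the remaining genes, Pgk1 (phosphoglycerate kinase) was at 0.033, Eno2 (neuronal enolase) at 0.053 and Pgam2 (the muscle mutase, dim here) at 0.11 in log2 fold change, none past the test. FSS mouse 3 held the highest Pgam2 value (7.53) and control mouse 2 the lowest (7.24).

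Lactate dehydrogenase converts pyruvate and lactate into each other. Ldha, the subunit that favours lactate formation, was at 11.62, 11.55 and 11.57 in control mice and at 11.58, 11.58 and 11.57 in FSS mice. The 3 FSS values fell inside the control range, and the log2 fold change was -0.0041 (SE 0.041, 95% interval -0.10 to 0.094). Ldhb, the subunit that favours lactate use and prevails in neurons, was at 10.92, 11.00 and 10.94 in control mice and at 10.88, 10.95 and 10.94 in FSS mice. Again the groups overlapped (log2 fold change -0.033, SE 0.045), and the second Ldhb row was at -0.024.

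Slc16a3 (MCT4), known in brain as the exporter of astrocytes, was at 7.02, 7.05 and 6.99 in control mice and at 6.85, 6.96 and 6.84 in FSS mice. Each FSS mouse lay below each control mouse, with FSS mouse 2 closest to control mouse 3. The means were 7.02 ± 0.030 and 6.89 ± 0.067 (SD, n = 3 each), and the difference passed the unadjusted threshold of limma but not the adjusted one (adjusted p = 0.943). The row is dim, and the unadjusted call was not kept in every fit. It was lost without control mouse 1 (log2 fold change -0.13), control mouse 2 (-0.12), FSS mouse 1 (-0.12) or FSS mouse 3 (-0.11). It was also lost with a variance trend and robust moderation (-0.13). Leaving out a mouse also weakens the test, and without control mouse 1 the difference was no smaller than with all mice. Without control mouse 3 or FSS mouse 2 the difference was -0.15 or -0.17 and passed.

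Slc16a1 (MCT1), a transporter of glia and of vessel walls, was at 8.98, 9.02 and 9.01 in control mice and at 9.07, 8.87 and 9.14 in FSS mice. The control mice were close together (SD 0.021), whereas FSS mouse 2 was the lowest and FSS mouse 3 the highest of the 6 (SD 0.14), and the log2 fold change was 0.023 (SE 0.075). The mean level of the oligodendrocyte markers, 7 of 8 measured, was arranged alike: 10.50 in FSS mouse 2, 10.85 in each of FSS mice 1 and 3, and 10.67 to 10.75 in control mice. Not every single marker was. Log2 fold changes were above 0 in 3 and below 0 in 4, from -0.21 (Mobp) to 0.32 (Opalin). Mobp in FSS mice 1 and 3 (10.991 and 11.011) lay below the control mice (11.014 to 11.132). Opalin in FSS mouse 2 (8.40) lay above control mice 2 and 3 (8.32 and 8.31). The part of oligodendrocyte RNA in the Slc16a1 values was not tested.

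Slc16a7 (MCT2), the high-affinity transporter of neurons, was at 9.42, 9.42 and 9.49 in control mice and at 9.59, 9.43 and 9.56 in FSS mice. FSS mouse 2 lay among the control mice and the other two FSS mice above them, and the fold change did not pass the test (log2 0.083, SE 0.056, limma adjusted p = 0.946).

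**Figure D2:**
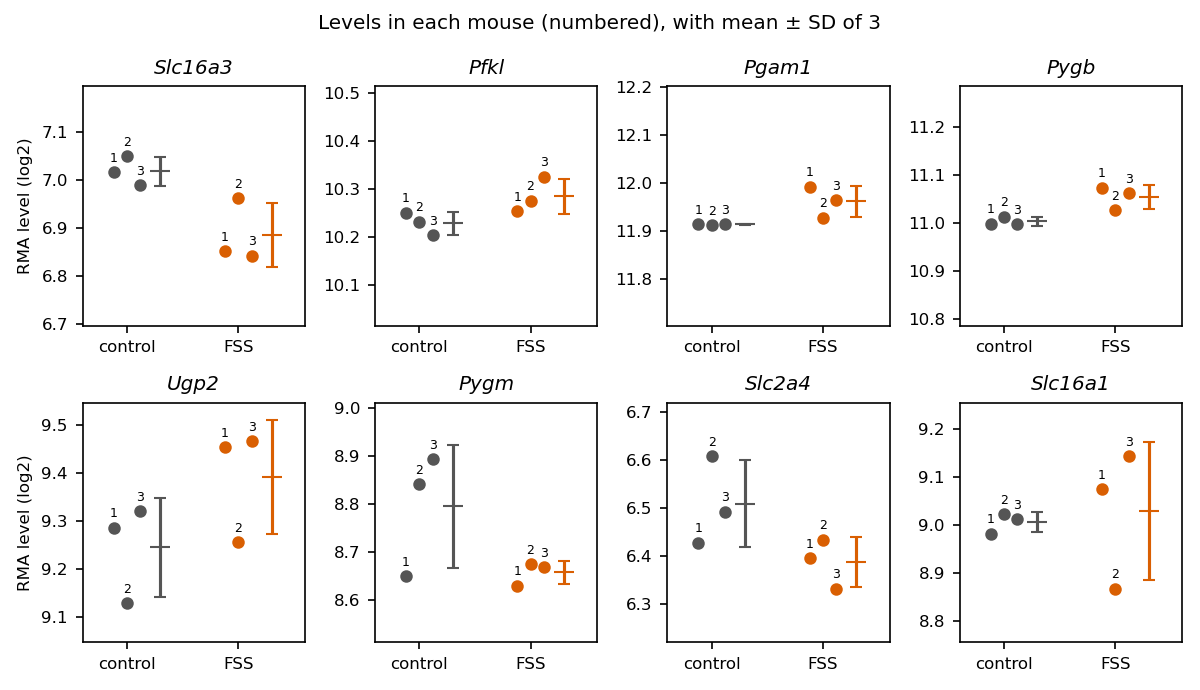
RMA level (log2) of 8 genes in each mouse, numbered 1 to 3 within control (grey) and FSS (orange), with mean ± SD of the 3 mice beside the points. Each panel spans 0.5 on the log2 axis. The upper row holds the 4 genes whose groups did not overlap (Slc16a3 lower in FSS, Pfkl, Pgam1 and Pygb higher), and the lower row holds 4 genes with wide spread or larger differences, whose groups overlapped.

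Pyruvate dehydrogenase turns pyruvate into acetyl-CoA, and the kinases Pdk1, Pdk2 and Pdk3 switch it off. Pdha1, its catalytic alpha subunit, was at 10.38, 10.42 and 10.42 in control mice and at 10.42, 10.33 and 10.46 in FSS mice. FSS mice held both the lowest and the highest value, and the log2 fold change was -0.0029 (SE 0.048). The beta subunit Pdhb and the 3 kinases had log2 fold changes from -0.042 (Pdk2) to 0.039 (Pdk3), and 0 of these 5 genes passed the test.

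Glycogen is made by glycogen synthase and the branching enzyme and broken down by glycogen phosphorylase. Gys1, the synthase outside the liver, was at 8.23, 8.16 and 8.31 in control mice and at 8.36, 8.21 and 8.23 in FSS mice, with overlap and a log2 fold change of 0.028 (SE 0.061). Pygb, the brain phosphorylase, was at 11.00, 11.01 and 11.00 in control mice and at 11.07, 11.03 and 11.06 in FSS mice. It had the smallest pooled SD between mice of the 35 genes (0.018), each FSS mouse lay above each control mouse, and limma, which draws such small variances towards those of all rows, gave a log2 fold change of 0.051 (SE 0.039, adjusted p = 0.962). With the variance of its own row alone, the same difference passed the unadjusted threshold.

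Pygm, the phosphorylase isozyme found in muscle and in astrocytes, was at 8.65, 8.84 and 8.89 in control mice and at 8.63, 8.67 and 8.67 in FSS mice. Control mouse 1 lay among the FSS mice (log2 fold change -0.14, SE 0.069, limma adjusted p = 0.943), and leaving that mouse out gave -0.21, while leaving out control mouse 3 gave -0.088. Ugp2 was at 9.28, 9.13 and 9.32 in control mice and at 9.45, 9.25 and 9.46 in FSS mice. Its lowest value was in control mouse 2, FSS mouse 2 lay between control mice 1 and 2, and the difference did not pass the test (log2 fold change 0.15, SE 0.079, limma adjusted p = 0.943). Leaving out control mouse 2 gave 0.088, and leaving out FSS mouse 2 gave 0.21.

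Pgm2, a phosphoglucomutase that also acts on pentose phosphates, was at 8.09, 8.19 and 8.25 in control mice and at 8.06, 8.12 and 8.09 in FSS mice. FSS mouse 1 was the lowest of the 6, and 2 FSS mice lay above control mouse 1 (log2 fold change -0.087, SE 0.053, limma adjusted p = 0.945). The branching enzyme Gbe1 had the largest pooled SD of the 35 genes (0.12) and a log2 fold change of 0.056. Gaa, the lysosomal glucosidase that degrades glycogen, was at 0.0054 and Pgm1, the main phosphoglucomutase, at -0.021 in log2 fold change. Of the 8 genes of glycogen metabolism, 5 lay above 0 and 3 below, and 0 passed the test.

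Astrocyte markers are given here because these cells hold most brain glycogen and are known to express Slc16a3. Their mean level was 10.68 to 10.73 in control and 10.75 to 10.81 in FSS mice. Of the 10 markers, 3 were higher at an unadjusted limma p under 0.05, beside 2.49% of all rows. They were the water channel Aqp4, the filament protein Gfap and the gap junction protein Gja1. Another 2 were lower, Aldoc and the glutamine synthetase Glul, beside 2.66% of all rows. None of the 10 markers passed after adjustment. Aqp4 had the largest difference of these (log2 fold change 0.33, SE 0.078). The part of astrocyte RNA in the values of Slc16a3, Pygm or Gys1 was not tested.

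Pairs of genes with related or opposed roles were also compared within each array, which removes any shift of a whole array, by exact two-sided permutation tests over the 6 mice adjusted for 4 pairs. With 3 mice against 3 the smallest p is 0.1. Ldha minus Ldhb was 0.62 ± 0.077 in control and 0.65 ± 0.042 in FSS mice (SD, n = 3 each, exact p = 0.4, adjusted 0.8). Slc16a1 minus Slc16a7 was -0.44 ± 0.041 and -0.50 ± 0.074 (exact p = 0.3, n = 3 each, adjusted 0.8). Hk2 minus Hk1 differed by 0.0066 between the groups (exact p = 1, adjusted 1), and Pygb minus Gys1 by 0.023 (exact p = 0.7, adjusted 0.933). The Hk1 row in this pair is the one that may not measure Hk1. With the Hk1 row of RefSeq transcripts the difference was 0.017 (exact p = 0.6, unadjusted). No pair differed beyond the spread between mice, which at this number of mice does not show that the balance was equal.

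The genes also deviated together within arrays. Of the 35 genes, 24, 22 and 23 lay above their own mean in control mouse 3, FSS mouse 1 and FSS mouse 3, the 3 arrays of wider spread, against 10, 17 and 10 in control mouse 1, control mouse 2 and FSS mouse 2. The mean deviation over the 35 genes was 0.024, 0.012 and 0.024 in the former and -0.024, -0.0064 and -0.029 in the latter. Over all rows tested it was -0.017, 0.0047 and -0.0099 in the former and 0.0072, 0.011 and 0.0042 in the latter. The same counts were not made for other bright rows, so the pattern is not shown to be particular to these genes. Most of the 35 genes are bright, with 30 at or above the median level and Slc2a4, Hk2, Pfkfb4, Pgam2 and Slc16a3 below it.

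Within the narrow arrays FSS minus control of Slc16a3 was -0.071 and within the wide ones -0.14, with 1 or 2 mice per group in each. Pfkl gave 0.034 and 0.086, Pgam1 0.015 and 0.064, and Pygb 0.021 and 0.070. Groups that do not overlap fix this direction in any subset of the mice. The sizes rest on FSS mouse 2 alone in the narrow and on control mouse 3 alone in the wide arrays. Slc16a1 turned from -0.14 in the narrow to 0.097 in the wide arrays, and FSS mouse 2 held its lowest value. The part of the array spread in these sizes was not tested.

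**Figure D3:**
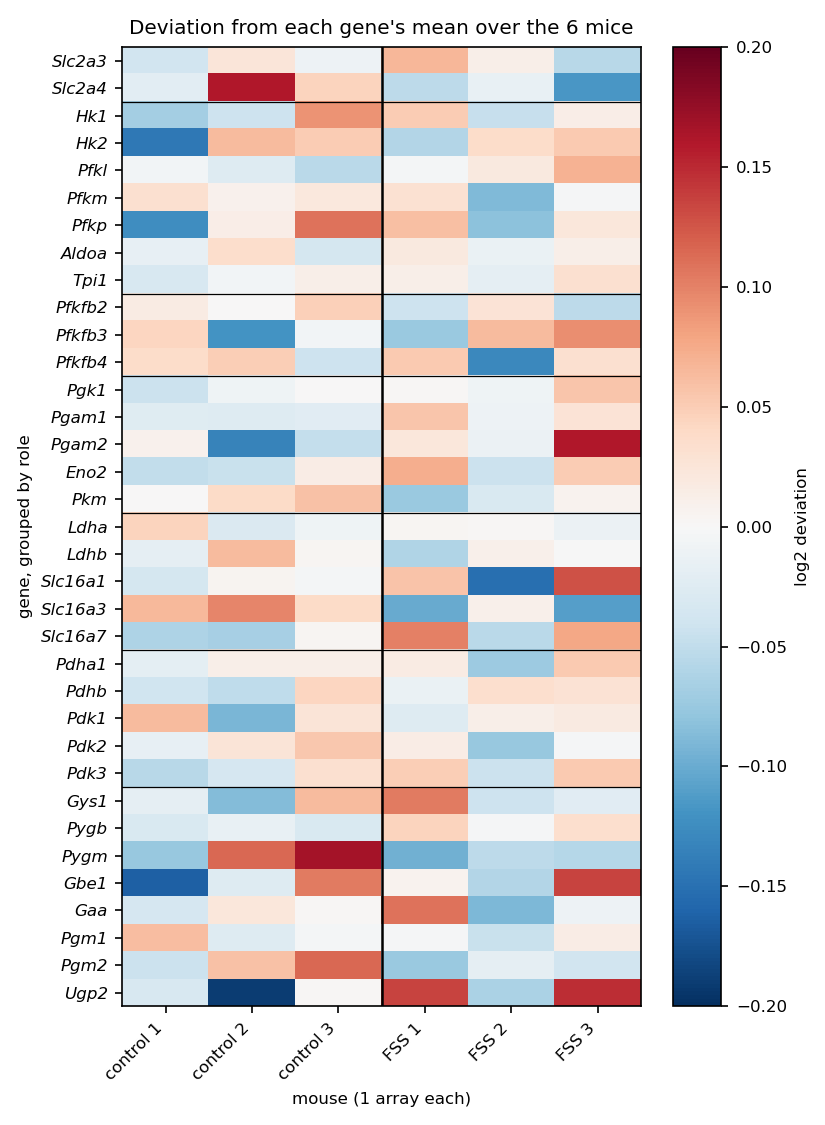
Deviation of each gene (rows, grouped by role) from its own mean over the 6 mice (columns, 1 array each), on the log2 scale, red above and blue below the mean. Vertical line, border between control and FSS mice. Red prevails in control 3, FSS 1 and FSS 3 (24, 22 and 23 of 35 genes above their mean) and blue in control 1 and FSS 2 (10 of 35 above in each).

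The pooled SD between mice of 26 of the 35 genes was below the median of all rows. Its median was 0.050 for the 35 genes against 0.078 for all rows. All rows include the dim ones, whereas most of the 35 genes are bright. The SD of bright rows alone was not compared, so a small SD is not shown to be particular to these genes. Pygb, Pgam1, Tpi1, Ldha and Aldoa varied least, with pooled SDs of 0.018 to 0.028, and Gbe1, Ugp2 and Slc16a1 varied most (0.12, 0.11 and 0.10). Differences between the groups were smaller in bright rows, as the plot against the mean level shows.

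**Figure D4:**
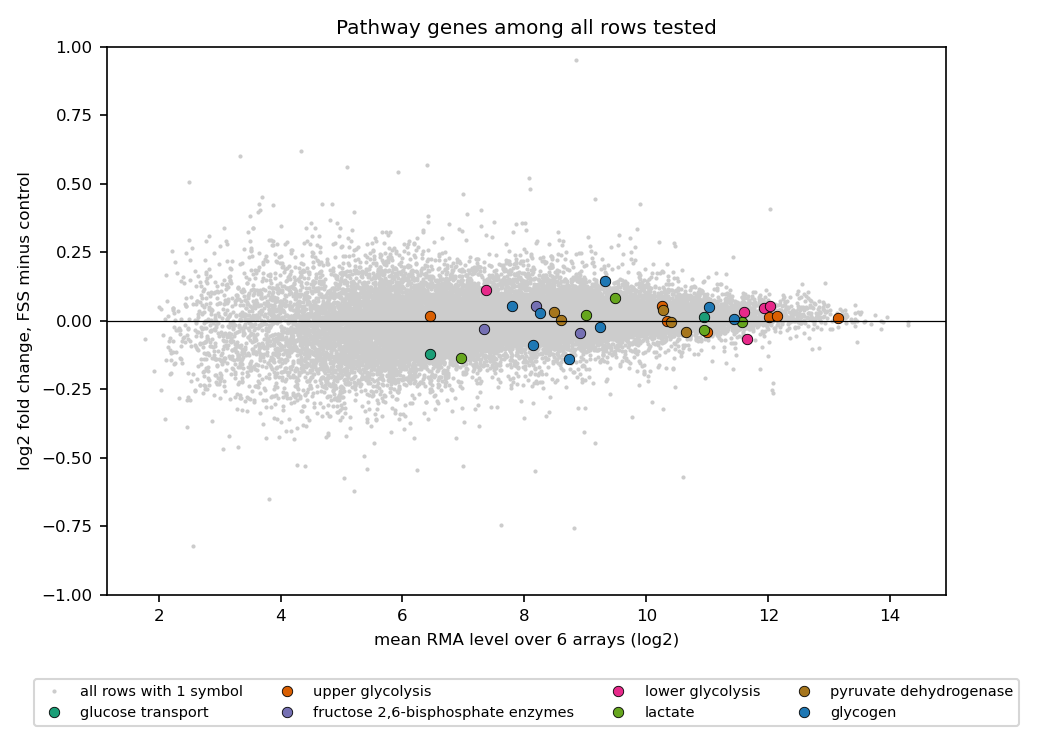
Log2 fold change (FSS minus control) against the mean RMA level over the 6 arrays for 21789 rows that name 1 gene (grey) and for the 35 genes, coloured by role. The 35 genes lie between -0.14 and 0.15, inside the grey cloud at their level, and the cloud narrows towards bright rows.

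Further genes of these pathways, 74 listed by function and 68 measured, also differed little. At an unadjusted limma p under 0.05 none was higher, beside 2.49% of all rows, and 3 were lower, beside 2.66%. The other 65 did not pass. The log2 fold changes ran from -0.18 (Slc2a1) to 0.21 (Fbp1, a dim row), with a median of 0.0068. Slc2a1, the glucose transporter GLUT1 of vessel walls and glia, was at 11.37, 11.52 and 11.63 in control mice and at 11.30, 11.35 and 11.34 in FSS mice (log2 fold change -0.18, SE 0.070, limma adjusted p = 0.943). The control mice spread widely and control mouse 1 lay near the FSS mice. The mean level of the 7 endothelial markers, of which Slc2a1 is one, was 8.62 to 8.74 in control and 8.63 to 8.77 in FSS mice, and no other marker of that list passed the test.

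Aldoc, the aldolase of astrocytes, was at 12.76, 12.80 and 12.77 in control mice and at 12.69, 12.62 and 12.70 in FSS mice (log2 fold change -0.10, SE 0.044, limma adjusted p = 0.943). Phka2, a regulatory subunit of phosphorylase kinase, was at 9.64, 9.74 and 9.63 in control mice and at 9.49, 9.60 and 9.48 in FSS mice (log2 fold change -0.15, SE 0.056, limma adjusted p = 0.943). As in 4.25% of all rows, each FSS mouse lay below each control mouse in Slc2a1, Aldoc and Phka2 (3 of the 68 genes). Each passed the unadjusted threshold only, and lost it when single mice were left out. Aldoc lost it without any 1 of the 6 mice (log2 fold change -0.12 to -0.079), Slc2a1 without any but control mouse 1 (-0.19 to -0.11 over those 5, the smallest without control mouse 3), and Phka2 without control mouse 1 or 2 or FSS mouse 1 or 3 (-0.16 to -0.11 over those 4). Leaving out a mouse also weakens the test, and the difference was not always smaller where the threshold was lost. Aldoc was at -0.12 without FSS mouse 3 and at -0.079 without FSS mouse 2, against -0.10 with all mice. With FSS higher, Phkb (0.099), Slc37a4 (0.092) and Tkt (0.073) showed no overlap (3 of the 68 genes, beside 6.02% of all rows). None of these genes passed the test.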

How the data were processed

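Total RNA from the hippocampus of 6 mice was labeled and hybridized, a mouse to an array, to Mouse Gene 1.0 ST arrays. The authors applied RMA to the CEL files in Expression Console and deposited the resulting log2 values (28944 rows). The genome build was not given in the sources used here. Probe sets were named from the platform annotation: 21789 rows had 1 symbol, 1621 several and 5534 none, and 21698 matched GRCm38.p6 by gene ID. RMA draws low signals together, which shrinks differences of dim rows, and the number of arrays limits the precision. FSS was compared with control over all rows with 1 symbol using limma (version 3.58.1, R 4.3.3; lmFit and eBayes, two-sided), with Benjamini-Hochberg adjustment over these rows and 0.05 as the threshold. The fit was tested on simulated data. Values per mouse are given for genes with p under 0.05 or no overlap, for a fixed set of key enzymes and transporters, and for Slc2a4, Pygm and Ugp2, added after their values were seen. The genes, lists and roles were chosen with earlier results of these data known. Alternatives covered variance models, array weights, normalization, dim rows, rows per symbol, blocks and each mouse left out.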

Additional observations from a re-analysis of the deposited data

How the results depend on the processing

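Under the 16 alternatives, 0 rows passed an adjusted p of 0.05 and 0 of the measured genes met the thresholds of the study's methods. The median log2 fold change of the 35 genes lay between -0.0068 and 0.030. It was below 0 after quantile normalization (-0.0057), when array spread was a block (-0.0019) and without FSS mouse 1 (-0.0068). At an unadjusted p under 0.05, 1 gene was higher with a variance trend and robust moderation (Ugp2, beside 3.47% of all rows), where Pygm was lower in place of Slc16a3. With the variance of each row alone, as in a t-test, 1 was higher (Pygb, 2.96% of rows), and with the replicate block 1 (Ugp2, 3.23% of rows). The methods name no test for the array comparison. Without dim rows, which leaves Slc16a3 out, 0 were lower (1.78% of rows) and 0 higher (4.81% of rows). With each mouse left out in turn, 0 to 2 genes were higher (Slc16a7 and Ugp2 without FSS mouse 2, beside 3.42% of rows) and 0 to 3 lower (Pgm2, Pygm and Slc2a4 without control mouse 1, beside 2.65% of rows). The methods name no pairing of mice by replicate number. Deviations of same-numbered mice correlated at -0.048, 0.145 and 0.239, and those of differently numbered mice at -0.259 to 0.131. These values do not settle whether the replicate numbers pair mice. Small differences changed sign. With the array spread as a block Gys1 was at -0.0054, Hk1 at -0.024 and Slc16a1 at -0.019, with quantile normalization Hk1 was at -0.0076, and Pdha1 was at 0.014 with array weights and 0.00014 with array medians subtracted. Over the mice left out, log2 fold changes ran from -0.018 to 0.067 for Gys1, -0.017 to 0.061 for Hk1, -0.047 to 0.056 for Hk2, -0.020 to 0.017 for Ldha, -0.030 to 0.033 for Pdha1, -0.035 to 0.10 for Slc16a1 and -0.014 to 0.046 for Slc2a3. Within-array differences ran from -0.0096 to 0.067 for Ldha minus Ldhb, -0.033 to 0.064 for Hk2 minus Hk1 and -0.019 to 0.065 for Pygb minus Gys1. The cause of these changes was not tested. The Hk1 row with RefSeq transcripts was chosen as an alternative after seeing the data. Where 1 group is left with 2 mice, both groups share 1 estimate of the spread.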
